A study of Sus scrofa with 36 samples.

Results

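PTPRC (CD45), PTPN6 (SHP-1), DOK2, RASGRP4, CYTH4, ARHGDIB, GPSM3, NCF4 and BCL2A1 are 9 of the 12253 genes in an RNA-Seq table of pig subcutaneous adipose tissue. They were taken by their Ensembl gene IDs as genes of leukocyte signalling around CD45. All 9 stand among the 275 genes that the study placed in its Blue module, a set of genes whose levels moved together over these same pigs and which was singled out for its relation to the Obesity Index (OI). The genes were therefore chosen by the way they differ between obese and lean animals, and their differences between these groups and their correlations with each other are given below as descriptions. Where calls from the fit over all genes are counted for this contrast, nothing is read from them. The intermediate pigs were also among those the module was built on, so where they lay is a description too. How the genes differed between the sexes and whether the obese-to-lean difference depended on sex did not enter the choice directly and were tested.

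CD45 is a receptor-type tyrosine phosphatase that covers the surface of nucleated blood cells and switches on Src-family kinases by removing their inhibitory phosphate. SHP-1 works in the other direction: it is recruited to inhibitory receptors and removes activating phosphates, and the adaptor DOK2 likewise dampens kinase signals towards Ras. Adipose tissue consists of adipocytes together with fibroblasts, vessels and resident leukocytes, of which macrophages are best known for their increase in obesity, so transcripts of these genes in whole fat tissue are generally read as coming from its leukocytes.

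The pigs were F2 animals of an intercross between Duroc and Göttingen Minipig, and the OI is a genetic value predicted for each animal from several obesity traits, not a measured fat content. The labels give the OI class as low, mean or high, called lean, intermediate and obese here, with 12 pigs each. The lean pigs were 7 males and 5 females, and both other groups held 6 of each sex, which makes 19 males and 17 females. The labels name no treatment. According to the study's methods the groups hold full sibs, which cannot be assigned to single pigs here, and the lean animals were older at slaughter than the obese ones, so that OI class and age cannot be told apart. Each pig gave 1 library, with 8735839 to 11755925 reads counted over the 12253 genes and a median of 10496910.

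Values are given as normalized counts, that is reads divided by the size factor of the library. They do not correct for transcript length, and so they are compared between pigs and not between genes. The median number of reads per pig ranged from 61 for BCL2A1 to 769 for ARHGDIB. The lowest value was 12 reads, for BCL2A1, for which an exact Poisson 95% interval of 6.20 to 21.0 covers counting error only. In whole tissue, fewer leukocytes and less RNA per leukocyte cannot be told apart.

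On the pig genome Sscrofa10.2, PTPRC lies at chr10:26308759-26332284, DOK2 at chr14:6618168-6622585 and RASGRP4 at chr6:42820748-42833686. BCL2A1 at chr7:54395231-54406136 and GPSM3 at chr7:28048460-28050665 share a chromosome. Chromosome 5 holds 4 of the 9 genes, CYTH4 at chr5:8072167-8104676, NCF4 at chr5:8474345-8497583, ARHGDIB at chr5:60965351-60987579 and PTPN6 at chr5:66198251-66208731. CYTH4 and NCF4 are the closest of these, with 369668 bases between them, and the other pairs are 5210671 bases or more apart. These intervals are whole gene models, introns included. In the RefSeq annotation of a later assembly, PTPN6, RASGRP4, ARHGDIB and NCF4 overlap another gene (FAM98C for RASGRP4, PDE6H for ARHGDIB, PVALB for NCF4 and a long noncoding RNA for PTPN6). Whether reads were counted by strand is not given in the sources used here. Neither is whether the annotation used for counting holds these overlaps. For these 4 genes it is therefore not known whether reads of the neighbour were counted.

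Of the phosphatases, PTPRC had 189, 262 and 742 normalized counts in the lowest, the median and the highest lean pig. The same values were 192, 424 and 845 in the intermediate and 293, 572 and 1324 in the obese group. The lean median was exceeded by all 12 obese pigs, but the groups overlapped, since the highest lean pig exceeded 9 of the 12 obese ones. PTPN6 had 155, 239 and 600.1 normalized counts in the lean, 219.7, 400.4 and 898 in the intermediate and 261, 445 and 762 in the obese pigs. Here too the lean median was exceeded by all 12 obese pigs, while the highest value of all 36 pigs belonged to an intermediate female. On the log2 scale, obese minus lean was 0.88 (SE 0.24) for PTPRC and 0.65 (SE 0.21) for PTPN6.

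DOK2, which carries a Ras GTPase-activating protein to tyrosine-phosphorylated receptors, had 24.0, 58.5 and 181 normalized counts in the lowest, median and highest lean pig, 44.2, 95.4 and 179 in the intermediate and 50.3, 127 and 214 in the obese group. The highest lean pig was above 11 of the 12 obese pigs. Obese minus lean was 0.83 (SE 0.26) on the log2 scale. The obese median was thus above the intermediate median and the intermediate median above the lean one, as it was for PTPRC and PTPN6.

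RASGRP4 and CYTH4 encode activators of small GTPases. RASGRP4 loads Ras with GTP and is known from mast cells and other myeloid cells, and it had 70.6, 130.1 and 397 normalized counts in the lean, 136, 191 and 333 in the intermediate and 128, 267 and 356 in the obese pigs. In RASGRP4 the lean group held both the lowest and the highest pig of all 36. CYTH4, a cytohesin that activates ARF GTPases, had 122, 177 and 452 in the lean, 143, 303 and 500.2 in the intermediate and 192, 376 and 550.2 in the obese pigs. In log2 units, obese minus lean was 0.63 (SE 0.24) for RASGRP4 and 0.70 (SE 0.21) for CYTH4.

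ARHGDIB and GPSM3, both regulators that hold G proteins in their inactive form, had the smallest differences. ARHGDIB, a GDP-dissociation inhibitor that is abundant in blood cells and keeps small GTPases inactive in the cytosol, had 351, 711 and 1037 normalized counts in the lean, 467, 788 and 1737 in the intermediate and 590.5, 875 and 1838 in the obese pigs. GPSM3, which binds inhibitory G protein subunits in leukocytes, had 57.9, 82.9 and 155 in the lean, 47.7, 88.8 and 188 in the intermediate and 61.6, 104 and 180.2 in the obese pigs. Only 9 obese pigs for ARHGDIB and 8 for GPSM3 were above the lean median, the lowest such numbers among the 9 genes. In log2 units, obese minus lean was 0.39 (SE 0.17) and 0.15 (SE 0.18), and for GPSM3 the 95% interval of −0.22 to 0.52 included 0.

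NCF4 encodes a cytosolic subunit of the phagocyte NADPH oxidase, and BCL2A1 an anti-apoptotic BCL2 family protein of haematopoietic cells. NCF4 had 123, 167 and 495 normalized counts in the lean, 103, 273 and 363 in the intermediate and 150.4, 245 and 441 in the obese pigs. It was the only one of the 9 genes in which the intermediate median was above the obese one. BCL2A1 had 13.1, 38.7 and 107 in the lean, 15.9, 72.5 and 172 in the intermediate and 30.8, 105 and 188 in the obese pigs. Of these, 6 obese pigs lay above all lean pigs, which was the highest such number among the 9 genes. Obese minus lean, in log2 units, was 0.47 (SE 0.20) for NCF4 and 1.09 (SE 0.34) for BCL2A1.

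**Figure D1:**
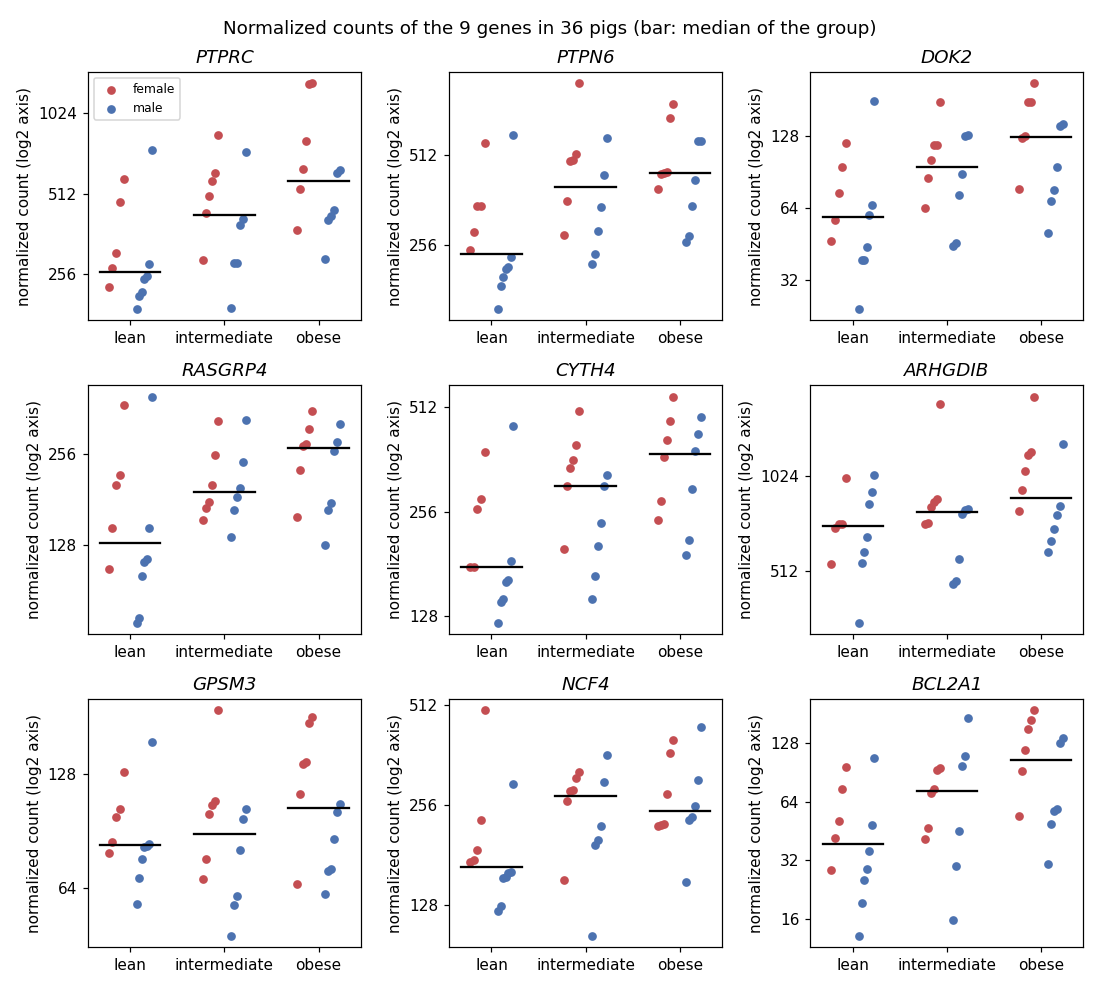
Normalized count of each of the 9 genes (vertical log2 axis) in lean, intermediate and obese pigs, with 1 point a pig, females in red and males in blue, and the group median as a bar. The lowest pig is male in every group of every panel, and a lean male stands at the top of the lean group in 8 of 9 panels.

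In each of the 9 genes obese minus lean was positive on the log2 scale, with a median of 0.65 beside −0.01 over all 12253 genes. Between intermediate and lean pigs the median was 0.42, with GPSM3 at −0.10, and between obese and intermediate pigs 0.31. With limma and p-values corrected across all genes after Benjamini-Hochberg (BH), 0 of the 9 were called between obese and lean, where 0.0408% of all genes were called. These were 5 genes, all lower in the obese pigs, of which TAS1R3 carries a symbol in the gene table used and the other 4 do not. At an unadjusted p under 0.05, 8 of the 9 genes were higher in the obese pigs, as were 6.81% of all genes. Since the genes were selected on this contrast, nothing is read from these counts.

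Within the lean group 2 animals stood above the others. Lean replicate 2, a male, had the highest lean value in 8 of 9 genes and was among the 3 highest in NCF4, with a median ratio of 2.55 to the lean median, and lean replicate 8, a female, was among the 3 highest lean pigs in all 9, with a median ratio of 2.22. Both were of ordinary depth, with 10415927 and 9481101 reads. The summed normalized counts of 6 general leukocyte markers were 8686 and 6817 in these 2 pigs beside a lean median of 2644, and those of 7 macrophage markers were 9418 and 9905 beside 2789. Those of 5 T or NK cell markers, most of whose reads come from CD247, were 871 and 819 beside 845. Without lean replicate 2, the fit called 2.38% of all genes between obese and lean, 191 higher and 101 lower, and among them were PTPRC, PTPN6, DOK2, BCL2A1, RASGRP4 and CYTH4, with log2 differences of 1.02, 0.78, 1.00, 1.25, 0.78 and 0.83. ARHGDIB (0.47), GPSM3 (0.25) and NCF4 (0.55) were not among them. Without lean replicate 8 the fit called 1.66% of all genes, of which PTPRC, at 0.94, was the only one of the 9. Both pigs were picked out by their values in these genes and the contrast is the one the genes were chosen on, so nothing is read from these calls either.

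By log2 means the 9 genes were lower in males than in females in each of the 3 groups, although no single gene passed the correction. By medians of normalized counts the exception was RASGRP4 in the intermediate group, with 191 in males and 189.8 in females. The log2 difference of males minus females was −0.56 (SE 0.20) for PTPRC, −0.50 (SE 0.17) for PTPN6, −0.55 (SE 0.22) for DOK2 and −0.47 (SE 0.15) for GPSM3. It was −0.59 (SE 0.28) for BCL2A1, −0.45 (SE 0.17) for CYTH4 and −0.41 (SE 0.14) for ARHGDIB, and nearest to 0 for RASGRP4 at −0.33 (SE 0.19) and NCF4 at −0.31 (SE 0.16). With limma and BH correction 0 of the 9 were called, with adjusted p-values from 0.0815 for GPSM3 to 0.353 for RASGRP4, while 2.19% of all genes were called. At an unadjusted p under 0.05, 7 of the 9 were lower in males, all but RASGRP4 and NCF4, beside 10.3% of all genes. By sign alone all 9 were lower in males, as were 52.3% of all genes, and the median was −0.47 beside −0.01 over all genes. Because the 9 genes were selected for moving together, their shared sign is not 9 separate observations.

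In PTPRC the 17 females had 229, 533 and 1324 normalized counts in the lowest, the median and the highest animal and the 19 males 189, 293 and 742, and 15 males lay below the female median. In GPSM3 the females had 65.3, 106 and 188 and the males 47.7, 80.4 and 155, and 17 of 19 males were below the female median. The sexes overlapped in both genes. The lowest pig was a male in all 27 combinations of gene and group. Over all genes the lowest pig of a group was male in 54.5% of combinations and in all 3 groups for 19.1% of genes. The 27 combinations are not separate observations, since the 9 genes moved together and the same few pigs recur. Lean replicate 11, intermediate replicates 2 and 12 and obese replicate 5 were lowest in 5, 5, 4 and 5 genes. The highest pig was female in 15 of the 27 combinations, or 55.6%, beside 45.4% over all genes.

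None of the 9 genes passed the test for an obese-to-lean difference that depends on sex. Within the lean, intermediate and obese groups the difference in log2 means of males and females was −0.41, −0.58 and −0.69 for PTPRC, and −0.56, −0.30 and −0.09 for NCF4. RASGRP4 differed by −0.70 in lean and −0.05 in intermediate pigs. In the obese group the median PTPRC count was 718 in females and 434 in males. The sex by group interaction (obese minus lean in males, less the same in females) ranged from −0.35 (SE 0.35) in ARHGDIB to 0.48 (SE 0.41) in NCF4 on the log2 scale, with adjusted p-values of 0.632 to 0.996 by limma with BH correction, 0 of 9 called and 0 of 9 at an unadjusted p under 0.05. Over all genes 0.00816% were called and 12.9% had an unadjusted p under 0.05. The 95% intervals were wide, −1.29 to 0.72 for PTPRC and −1.43 to 1.40 for BCL2A1, and include differences between the sexes as large as the obese minus lean difference itself. Within males the obese minus lean difference of the 9 genes had a median of 0.76, with GPSM3 at 0.00, and within females 0.54. Over all genes these medians were 0.02 and −0.07, and the interaction had a median of 0.09. With reads divided by the whole size factor, the medians of the 9 genes were 0.74 in males and 0.60 in females. On that scale 8 of 9 genes were higher in obese than in lean males.

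Lean replicate 2 also bore on the comparison of the sexes, since it is a male with high values. Without it 3.34% of all genes were called for sex, and the adjusted p-value was under 0.05 for 5 of the 9 genes: GPSM3 (adjusted p = 0.0285), PTPN6 (0.0345), PTPRC (0.0350), CYTH4 (0.0468) and DOK2 (0.0499), by limma with BH correction. Leaving out obese replicate 7, a female, GPSM3 alone passed (adjusted p = 0.0338). No single other pig, when left out, gave a call for any of the 9 genes, and all 9 were lower in males in each fit. Lean replicate 2 was picked out by its high values in these genes, and leaving it out lowers the male mean by construction, so nothing is read from the calls made without it.

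**Figure D2:**
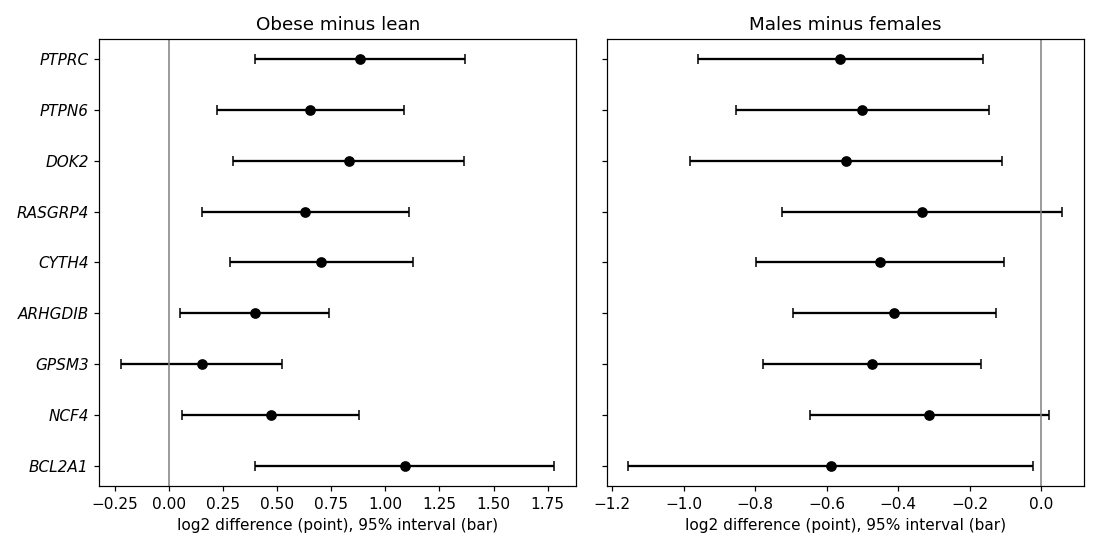
Log2 differences of obese minus lean pigs (left) and males minus females (right) for the 9 genes from limma over 36 pigs, as points with 95% intervals as bars. All points on the left are above 0, with GPSM3 lowest at 0.15, and all points on the right are below 0, from −0.59 to −0.31.

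The position of the intermediate pigs is given relative to the midpoint of lean and obese pigs. The difference of the intermediate mean from the mean of the other groups ranged from −0.18 (SE 0.16) in GPSM3 to 0.15 (SE 0.18) in PTPN6, with a median of 0.04. By limma with BH correction, 0 of 9 genes and 0% of all genes were called. At an unadjusted p under 0.05 there were again 0 of 9, where 6.11% of all genes passed. A gene chosen for a relation to the OI over all pigs tends to have its intermediate mean near the midpoint, so nothing is read from these counts. For GPSM3 the intermediate mean was below the lean mean as well, by −0.10 on the log2 scale. The 95% intervals were wide, −0.44 to 0.40 for PTPRC and −0.56 to 0.64 for BCL2A1.

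The general leukocyte markers had the same sign as the 9 genes in both comparisons. Markers are counted as measured where the gene table used gives their symbol. Of the list of 9, CORO1A, CD37 and SELPLG are named only by the study's module list and are left out of the counts and means. They were at 0.74, 0.81 and 1.05 for obese minus lean and at −0.70, −0.66 and −0.37 for males minus females. The 6 measured general leukocyte markers (CD53, LCP1, LAPTM5, ITGB2, CD48 and HCLS1) were all higher in the obese pigs and all lower in males. Their median log2 differences were 1.10 and −0.51. Their summed normalized counts ranged from 1351 to 8686 in the lean, 1747 to 8868 in the intermediate and 3075 to 9158 in the obese pigs. All 6 are in the Blue module themselves. Relative to the mean of these markers, the obese minus lean difference of the 9 genes had a median of −0.37, and only BCL2A1 was above 0, at 0.07 (SE 0.15). GPSM3 stood lowest, at −0.87 (SE 0.20), followed by ARHGDIB at −0.63 (SE 0.25). Males minus females ranged from −0.04 to 0.24 on this scale, with a median of 0.08, beside −0.55 (SE 0.25) for the mean of the general markers itself.

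Of the 12 listed macrophage markers, AIF1 and C1QC are named only by the study's module list. They were at 0.76 and 1.04 for obese minus lean and at −0.40 and −0.21 for males minus females. The measured macrophage markers (7 of 12, among them CD68, CD14, CSF1R and MSR1) are all in the Blue module. They were also all higher in the obese and all lower in the male pigs, with medians of 0.74 and −0.23. Relative to their mean, males minus females had a median of −0.15 over the 9 genes. It ranged from −0.27 (SE 0.15) in BCL2A1 to 0.01 (SE 0.14) in NCF4, none beyond 2 SE. For obese minus lean 7 of 9 were below 0, of which GPSM3 at −0.71 (SE 0.20) and NCF4 at −0.39 (SE 0.17) were beyond 2 SE. The 5 measured T or NK cell markers of 12 were all lower in males by the fitted means, with a median of −0.98, and CD2 (−1.07, SE 0.31, adjusted p = 0.0563), PRF1 (−0.98, SE 0.29, adjusted p = 0.0667) and CD8A (−1.09, SE 0.33, adjusted p = 0.0667) came nearest to the threshold by limma with BH correction, with none passing. CD247, which gave most of the reads counted for the 5, was at −0.11 (SE 0.13). The summed normalized counts of the 5 had a median of 980.0 in females and 858 in males, beside 6098 and 3075 for the general leukocyte markers and 6697 and 4231 for the macrophage markers. CD2, CD8A and PRF1 were uneven in the obese group, where their highest pigs had 514, 516 and 178 normalized counts beside medians of 60.4, 49.7 and 15.8. CD22, the only B cell marker measured of 6, was at −0.77, and the neutrophil markers pointed both ways, with CSF3R at −1.01 and S100A8 at 0.46. KIT and GATA2, which mark mast cells, were at −0.18 and −0.11. Between obese and lean pigs, 4 of the 5 T or NK cell markers were higher, with a median of 0.61 and CD247 at −0.04. CD22 was at 0.85, CSF3R at 1.67, S100A8 at 0.47, KIT at 0.40 and GATA2 at −0.37, and none was called.

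Markers of other cell types of the tissue were compared between the sexes as well. All 4 fibroblast or progenitor markers were higher in males, by 0.59 to 0.68 on the log2 scale, and DCN, a proteoglycan of the collagen matrix, passed the test (0.62, SE 0.15, adjusted p = 0.0222 by limma with BH correction). All 4 adipocyte markers were lower in males, and LIPE, the hormone-sensitive lipase, passed (−0.55, SE 0.11, adjusted p = 0.00534). The red cell markers HBB and ALAS2 were at −0.87 and −0.65 in males, endothelial markers at −0.14 to 0.03 and the skin marker KRT10 at 0.03. Obese minus lean medians were 0.26 for the fibroblast list, 0.10 for adipocytes, −0.28 for 3 endothelial markers, 0.81 for the 2 red cell markers and −0.26 for KRT10. Of 4 dendritic and 5 muscle markers none is named in the table. Whether the makeup of the tissue or the blood it held has a part in the differences of the 9 genes was not tested.

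Genes that work with the 9 in signalling were followed through lists of their kinases, adaptors, phosphatases, GTPases and families. Of 139 listed symbols 85 were measured, that is, given in the gene table used. Of these, 62 were higher and 23 lower in the obese pigs, with 0 called by limma with BH correction. At an unadjusted p under 0.05, 26 were higher and 6 lower, where 6.81% of all genes were higher and 7.88% lower. The 20 of these genes in the Blue module were all higher, a sign that the choice of that module favours. Of the 65 others 42 were higher and 23 lower, with a median log2 difference of 0.06 and with 7 higher and 6 lower at an unadjusted p under 0.05. The difference between the Blue genes and the others was not tested.

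Among the kinases that CD45 and SHP-1 act on, 10 of 13 were higher in the obese pigs. BTK, a kinase of B cells and myeloid cells, was at 0.92 (SE 0.33) and JAK3 at 0.85 (SE 0.22), and LYN, a Src-family kinase, stood at 0.39. LCK, a T cell member of that family, was at 0.48 (SE 0.39). TEC was lowest at −0.24 (SE 0.15). CSK, which puts on the inhibitory phosphate that CD45 removes, was at −0.03 (SE 0.12), and the widely expressed SRC at 0.00. None passed the test in either comparison.

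Of 21 adaptors and effectors 18 were higher in the obese pigs. The highest was PIK3R5, a regulatory subunit of the leukocyte PI3-kinase gamma, at 0.86 (SE 0.21), and the lowest PLCG1 at −0.35 (SE 0.10). The Blue module holds LAT2, LCP2, BLNK, VAV1, INPP5D, PIK3CD, PIK3CG, PIK3AP1, PIK3R5 and UBASH3B from this list, with differences of 0.54 to 0.86. The ubiquitous GRB2, SOS1 and NCK1 were at 0.18, 0.01 and 0.01. The inhibitory receptors that recruit SHP-1 were represented by CD22 at 0.85 and PECAM1 at −0.28, and CD33, named only by the study's module list, was at 0.38 (SE 0.22).

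Relatives of the 9 genes are listed here by their values. Most of them are outside the Blue module, so a smaller difference than in the 9 genes follows in part from the choice, and these sets were not tested against each other. PTPN11 (SHP-2), the closest relative of PTPN6, was at 0.04 (SE 0.10) between obese and lean pigs and at 0.01 (SE 0.08) between males and females. Of 20 other tyrosine phosphatases and associated genes, 13 were higher and 7 lower in the obese pigs, from PTPRM at −0.33 to PTPRO at 0.98, and their median was 0.04. PTPRCAP, which encodes a protein bound to CD45, was at 0.77, and PTPRJ at 0.36, both in the Blue module. DOK1, also in that module, was at 0.25 and DOK4 at −0.47. The relatives of RASGRP4 stood at 0.35 (RASGRP1), −0.24 (RASGRP2) and −0.15 (RASGRP3), those of CYTH4 at 0.05 (CYTH1) and −0.16 (CYTH2), and GPSM2 at 0.23. In the BCL2 family 3 of 6 genes were higher and 3 lower, from BID at −0.07 to BBC3 at 0.33.

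The partners of NCF4 in the oxidase named here are in the Blue module. NCF1 was at 0.68 (SE 0.24) and RAC2 at 0.82 (SE 0.26) between obese and lean pigs, both above NCF4 at 0.47. CYBB, the catalytic subunit, which is named only by the study's module list, was at 1.33 (SE 0.37). Of 13 small GTPases and G protein subunits, RAC2 and RHOH (0.70) had the highest differences, and the other 11, RHOA and CDC42 among them, lay between −0.05 and 0.25, with GNAI3 lowest. ARF6, a GTPase of the family that cytohesins act on, belongs to the study's Brown module, and it was at 0.12. FYN, of the Black module, was at 0.35.

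Between the sexes, 65 of the 85 pathway genes were lower in males, beside 52.3% of all genes, and 3 of the 85 passed the test, all of them lower, beside 2.19% of all genes called. PTPRCAP fell by 0.70 (SE 0.17, adjusted p = 0.0213 by limma with BH correction) and PIK3CD, the catalytic subunit of the leukocyte PI3-kinase delta, by 0.61 (SE 0.17, adjusted p = 0.0446). BID, a pro-apoptotic BCL2 family gene outside the Blue module, fell by 0.63 (SE 0.16, adjusted p = 0.0343). The 20 Blue genes had a median of −0.44 in males and the 65 others a median of −0.07. At an unadjusted p under 0.05, 13 of the 20 and 9 of the 65 were lower in males, beside 10.3% of all genes.

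**Figure D3:**
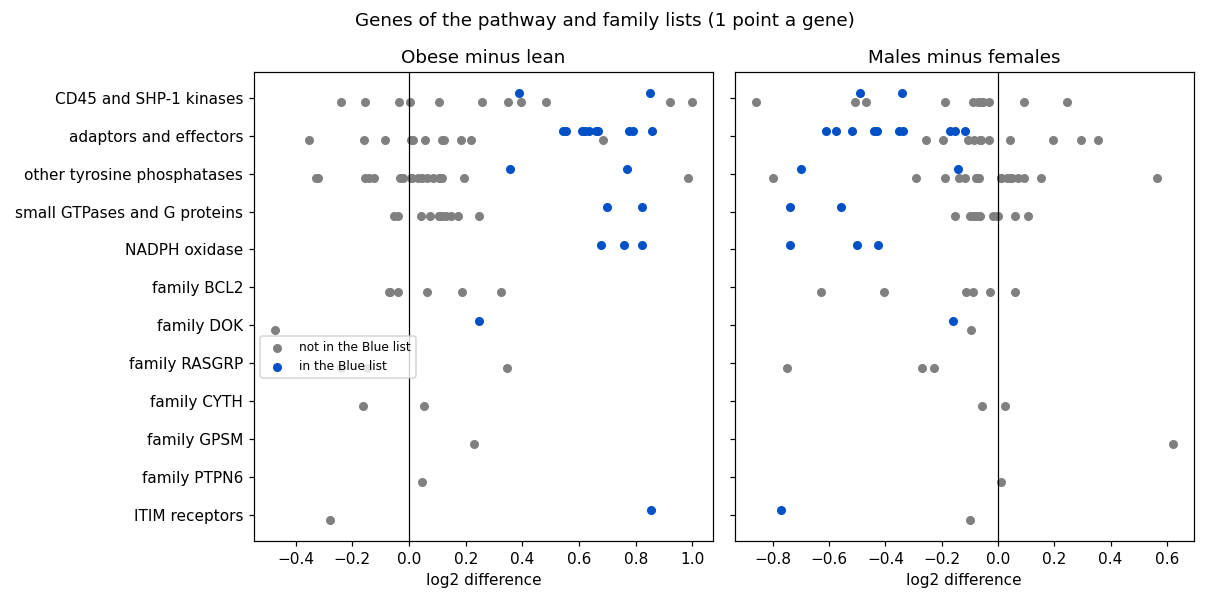
Log2 differences of obese minus lean pigs (left) and males minus females (right) for the measured genes of each pathway or family list (rows), with 1 point a gene, blue for genes of the Blue module and grey for all others. PTPN11 and RAC2 stand in 2 lists each; blue points lie right of 0 on the left and left of 0 on the right, while grey points lie on both sides, with medians of 0.06 and −0.07.

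After removal of the group and sex terms the 9 genes still varied together over the 36 pigs. Pearson's r over the 36 pairs ranged from 0.36, between RASGRP4 and ARHGDIB, to 0.90, between PTPN6 and DOK2, with a median of 0.70. PTPN6 had the highest median r with the other 8 genes, 0.84, and ARHGDIB the lowest, 0.48, with NCF4 at 0.58. The pigs share library preparation and depth in each pair, and the module was built from such correlations. PTPN6 and CYTH4, on the same chromosome but 58093574 bases apart, had an r of 0.90, above that of the neighbours CYTH4 and NCF4 (0.61). Without lean replicate 2 and intermediate replicate 7, the 2 pigs whose mean residual lay farthest out, there was a median r of 0.63, with values from 0.20 to 0.87.

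Within groups of 12 pigs, lean pigs had a median r of 0.85, intermediate pigs of 0.78 and obese pigs of 0.58; females had 0.65 and males 0.81. Without lean replicate 2 the lean median was 0.62. No pig was left out within the other groups, so this value cannot be compared with theirs. In the obese group NCF4 had an r of 0.21 to 0.46 with the other 8 genes, and ARHGDIB ranged from −0.11 with RASGRP4 to 0.62 with PTPRC. PTPRC and RASGRP4 had an r of 0.26. The SD of log2 values was lower in the obese than in the lean group for 6 of 9 genes, beside 55.5% of all genes. The differences between groups in r were not tested.

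**Figure D4:**
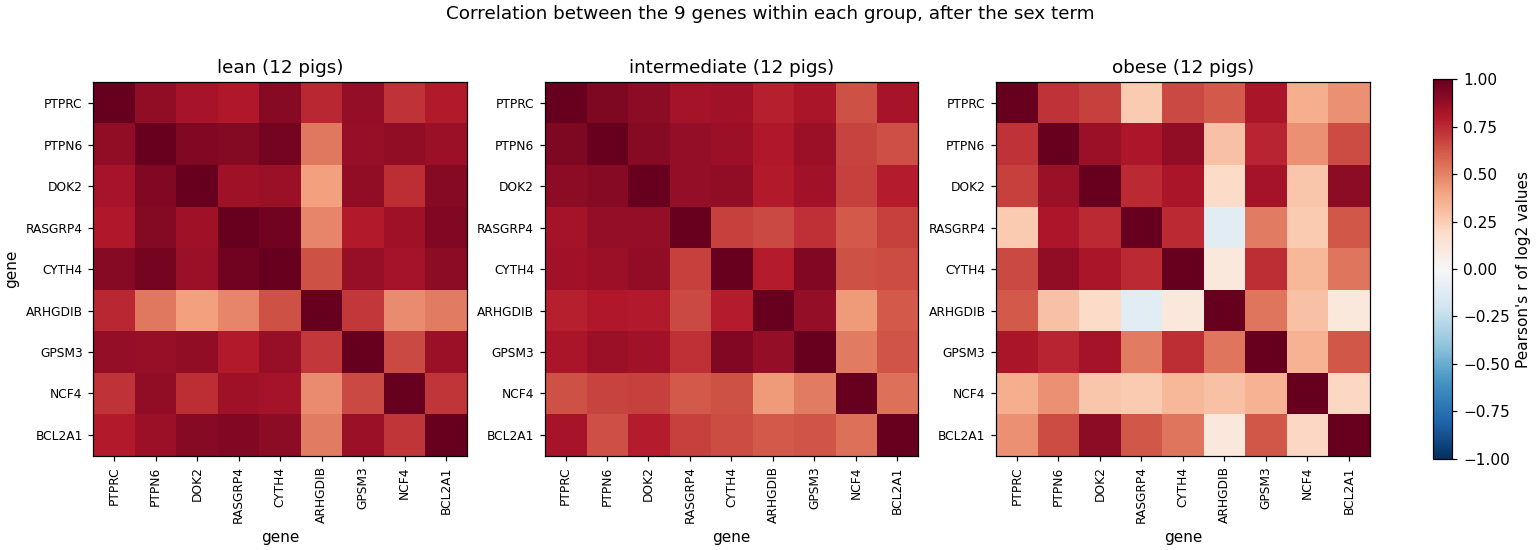
Pearson's r between the log2 values of the 9 genes after group and sex terms, with 1 panel a group, from blue (−1) to red (1). Nearly all pairs are red in lean and intermediate pigs, and in obese pigs most cells in the rows of ARHGDIB and NCF4 are pale, with a median r of 0.58 over the 36 pairs.

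Of the genes with a symbol, those most like PTPRC over the 36 pigs after group and sex terms were SASH3 (r = 0.92), IL2RG, a shared chain of interleukin receptors (0.91), SLA-DMB, a class II antigen presentation gene (0.90), AIF1 (0.90) and MAP4K1 (0.90). PTPN6 ranked 20th in this order with 0.85, and GPSM3 30th with 0.83, whereas RASGRP4 ranked 229th (0.63) and NCF4 321st (0.58). Most like the mean of the 9 genes were FERMT3, an integrin activator of blood cells (0.97), ARHGAP45 (0.96), FCER1G (0.95), MAP4K1 (0.95) and ITGB2 (0.94). All of these belong to the Blue module. MAP4K1 lies on chromosome 6 with 126595 bases between it and RASGRP4, with which it had an r of 0.79.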

How the data were processed

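Subcutaneous adipose tissue of 36 pigs was measured by paired-end RNA-Seq from poly-A RNA. The authors mapped reads to Sscrofa10.2 with STAR, counted them with HTSeq, left out low genes, estimated size factors with DESeq and applied voom of limma. The deposited values are log2 numbers: 0.5 is added to a gene's count, the sum is divided by the library's size factor increased by 1, and the result is put on a per-million scale. Whole reads recovered from them came out within 0.1 for 99.9% of values, so the gender correction described in the methods is not in the values.

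Tests used limma 3.58.1 (R 4.3.3) with an intensity trend and terms for group and sex, fitted to the 36 log2 columns together, with BH correction over 12253 genes at 0.05. On simulated data 200 genes were changed by 1 on the log2 scale. The fit recovered 177 of them for obese minus lean, with 8 false calls, and 189 for sex, with 17. The differences of the leukocyte signalling genes were mostly smaller, with a median of 0.65 for obese minus lean. For males minus females they ranged from −0.59 to −0.31. The recovery of a change of 1 therefore does not give the power of the tests for these genes. Python 3.11.15, numpy 2.4.6 and pandas 2.3.3 gave the rest. Standard errors are those of the fitted differences, moderated by limma. For values relative to marker lists they are from ordinary least squares. They rest on the spread between pigs. Standard errors and p-values treat pigs as independent, although the groups hold full sibs.

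The 9 genes and all lists were chosen with earlier results of these data known. Named besides the 9 are list genes that passed a test, stand in a module list, are the highest or lowest of a list or are relatives of the 9, and the 5 genes most like PTPRC or the mean of the 9. Other genes named (widely expressed partners such as GRB2, SOS1, NCK1, SRC and CSK, LCK, BTK, CYBB and TAS1R3) were chosen after their values were seen. Lists count symbols of the gene name table; BCL2A1, ARHGDIB and CYBB are named by the module list. Alternatives were a fit without the other term, lean and obese pigs alone, no trend, a filter leaving out the lowest 25% of genes, median subtraction, voom weights, each sex alone and each pig left out, and, for the median of the 9, the ratio of group medians and values relative to marker lists. Division by the whole size factor was added after seeing the data. Lanes could not be assigned to pigs. Some genes of the lists are not reported here by name.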

Additional observations from a re-analysis of the deposited data

Results flagged for a closer look

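None of the 9 genes passed the test for an obese-to-lean difference that depends on sex. Outside them, 1 gene, ENSSSCG00000010229, which has no symbol in the gene table used, passed the test for sex by group: obese minus lean was 0.31 in males and −0.41 in females on the log2 scale, a difference of 0.72 (SE 0.13, adjusted p = 0.0265 by limma with BH correction). It was not called after median subtraction, with voom weights, with division by the whole size factor or in lean and obese pigs alone.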

How the results depend on the processing

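The obese minus lean median of the 9 genes stayed between 0.54 and 0.76 under the other fits and between 0.59 and 0.78 with 1 pig left out. It was 1.04 as a ratio of group medians of normalized counts, −0.37 relative to the pan-leukocyte markers and −0.20 relative to the macrophage markers, both negative by construction, since those markers differed more. Males minus females kept a median of −0.54 to −0.42, and 0 to 5 of the 9 genes were called with 1 pig left out, 5 only without lean replicate 2. The count of genes called for obese minus lean, 5 (0 higher, 5 lower), was small and unstable. It was 3 with no sex term, 17 in lean and obese pigs alone (4 higher, 13 lower), 12 with no trend, 1 with the lowest 25% of genes left out, 9 with each pig's median subtracted and also with the whole size factor (2 higher, 7 lower each), 17 with voom weights (9 higher, 8 lower), 2 in males and 21 in females alone, and 1 to 292 with 1 pig left out. The count for sex, 268, was 123 in lean and obese pigs alone and 147 (without obese replicate 1) to 546 (without lean replicate 1) with 1 pig left out. The count for sex by group, 1, was 2 with no trend, 0 in lean and obese pigs alone, with median subtraction, voom weights or the whole size factor, and 0 to 33 with 1 pig left out, the highest without lean replicate 2. The filter leaves out BCL2A1. The cause of these changes was not tested. No paired analysis was possible because the titles number the pigs 1 to 36, and replicate numbers within groups only name the pigs, in accession order.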
